A study of Homo sapiens with 4 samples.

Results

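Of the 18778 DNA loops listed for PDS-treated HepG2 cells, 535 (2.85%) were supported by 5 or more paired-end tags (PETs) and joined a pair of anchors that was not joined in the mock list. They are called PDS-only strong loops here. They made up 29.3% of the 1824 PDS loops with 5 or more PETs, and both lists together held 77862 pairs of anchors. Since the loops were chosen by their PETs and by their absence from the mock list, these properties describe them and are not results. The data come from HiChIP-seq of POLR2A, the largest subunit of RNA polymerase II (RNAPII), in HepG2, a cell line from a human hepatocellular carcinoma. Control cells were given water (mock) and the others 20 µM pyridostatin (PDS) for 24 h, with 2 replicates per condition and no other difference in genotype or handling stated in the labels. The deposited data are 1 loop list per condition, with both replicates combined. Replicate spread is therefore unknown, and differences between the conditions were not tested. Intervals below are 95% Wilson intervals that cover counting error only, and loops that share an anchor are not independent.

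In HiChIP, DNA ends that lie close together in the nucleus are ligated, and the fragments bound by the protein of interest are then enriched, so that each PET joins a pair of places that met in chromatin carrying RNAPII. Such loops typically connect promoters with enhancers, promoters with other promoters, or parts of a transcribed gene with one another. A guanine quadruplex (G4) is a four-stranded fold of guanine-rich DNA that is frequent at promoters, and PDS is a small molecule that binds and stabilises it. A loop that appears in one list and not in the other may be newly listed at anchors that already took part in other loops, or may sit at anchors with no other loop, and the loops were sorted by that question below.

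Predicted G4 motifs in the anchors of the strongest loops are printed first, because G4 sites are where PDS is known to bind. A motif was defined as 4 G runs, each 3 or more bases long, with 1 to 7 bases of any kind between neighbouring runs. Both strands of GRCh38 were searched, and matches on a strand do not overlap. Each sequence below is the motif nearest to the midpoint of an anchor, written on its G-rich strand with the runs of 3 or more G in capitals. The first 4 belong to 3 loops with 9 PETs, and the others to loops with 8 PETs and a promoter anchor.
RAD51C and IGBP1C, chr17:58692019-58692042, plus strand: GGGaagacgtGGGtGGGtgcGGGG
BICD1, chr12:32196615-32196639, plus strand: GGGtctGGGGGtgaGGGattaGGGG
LINC02300 anchor, chr14:28615955-28615978, minus strand: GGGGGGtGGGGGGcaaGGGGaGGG
Partner of the LINC02300 anchor, chr14:28635807-28635829, minus strand: GGGGGtGGGGGGtcaGGGGaGGG
TRIM11, chr1:228397094-228397119, minus strand: GGGGGGGcaggaGGGagtGGGGtGGG
RNF187, chr1:228483947-228483965, minus strand: GGGaGGGaGGGaggaaGGG
ELMOD3 anchor 1, chr2:85371542-85371571, plus strand: GGGaggacctGGGctttcaGGGtaagaGGG
ELMOD3 anchor 2, chr2:85389963-85389988, minus strand: GGGGtGGGagaaGGGatgtcctGGGG
EIPR1, chr2:3222692-3222716, plus strand: GGGaGGGaggcctGGGcgtggaGGG
PPP1R21, chr2:48496170-48496188, plus strand: GGGagtGGGtGGGagtGGG
The TRIM11 and RNF187 anchors held 17 and 7 motifs, whereas the anchor with the starts of RAD51C and IGBP1C held 1. The loops with 8 PETs at SPTBN1 and inside GMDS had none in either anchor.

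The PETs of the PDS-only strong loops lay close to the lower limit of the rule. There were 396 loops with 5 PETs, 108 with 6, 17 with 7, 10 with 8 and 4 with 9, and none had more. Just outside the threshold stood 1848 loops with 4 PETs that were also absent from the mock list. Among all PDS loops, the part absent from the mock list was 67.8% at 3 PETs, 51.4% at 4, 35.0% at 5 and 26.7% at 6. It was 12.4% at 7, 14.3% (10 of 70) at 8 and 13.3% (4 of 30) at 9, and 0 of 50 above 9 PETs. The mock list starts at 3 PETs, so an absent loop may have had up to 2 PETs in mock-treated cells. Exact Poisson intervals, which show how loosely such counts are known, are 0.242 to 7.22 for 2 PETs, 1.62 to 11.7 for 5 PETs and 4.12 to 17.1 for 9 PETs. The mock PETs of these pairs, anywhere from 0 to 2, are not known, and the counts were not scaled for the depth of the libraries. The 535 loops held 2863 PETs, 4.27% of the 67001 PETs of the PDS list, and the mock list held 254647 PETs.

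The share of loops with a promoter anchor was lower among the PDS-only strong loops than among loops with 5 to 9 PDS PETs listed in both conditions. An anchor was called a promoter anchor when it lay within 1 kb of the start of any transcript of a protein-coding gene in GENCODE 44. At least 1 promoter anchor was present in 203 of the 535 loops (37.9%, interval 33.9 to 42.1%). Of the 1239 loops in both lists with 5 to 9 PDS PETs, 558 had one (45.0%, 42.3 to 47.8%), and of the 8720 mock-only loops with 5 to 9 mock PETs, 4419 did (50.7%, 49.6 to 51.7%). The weaker PDS-only loops had shares near that of the strong ones, 38.4% (36.2 to 40.7%) at 4 PETs and 38.6% (37.6 to 39.7%) at 3. The interval of the PDS-only strong loops thus overlapped those of the weaker PDS-only loops and lay below those of the loops in both lists and the mock-only loops. When starts of the gene record alone were counted, 94 of the 203 loops kept a promoter anchor (17.6% of the 535, 14.6 to 21.0%), so most of these anchors held the start of a shorter transcript inside a gene.

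Promoters lay at both anchors of 67 loops (12.5%, 9.98 to 15.6%), or of 1.495% by starts of the gene record alone, and at 1 anchor of 136 (25.4%, 21.9 to 29.3%), and 332 loops had none (62.1%, 57.9 to 66.1%). In 41 of the 67 a gene had transcript starts in both anchors, while 26 loops joined promoters of different genes. Of the 136 loops, 73 had the other anchor inside the same gene and 63 elsewhere. Among the 332 loops without a promoter, 124 had both anchors inside a single protein-coding gene. The promoter of a long non-coding RNA (lncRNA) lay at an anchor of 65 of the 332 (12.1% of the 535, 9.65 to 15.2%). That share was 11.6% (9.96 to 13.5%) for the loops in both lists and 8.70% (8.13 to 9.31%) for the mock-only loops. For PDS-only loops with 4 and 3 PETs it was 10.3% and 9.08%. Taking promoter classes together, 244 loops lay with both anchors inside 1 protein-coding gene (45.6%, 41.4 to 49.8%), compared with 57.2% (54.5 to 60.0%) of the loops in both lists. In 161 loops (30.1%, 26.4 to 34.1%) neither anchor touched a protein-coding gene, against 27.0% (24.6 to 29.5%) in both lists, and these intervals overlap.

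**Figure D1:**
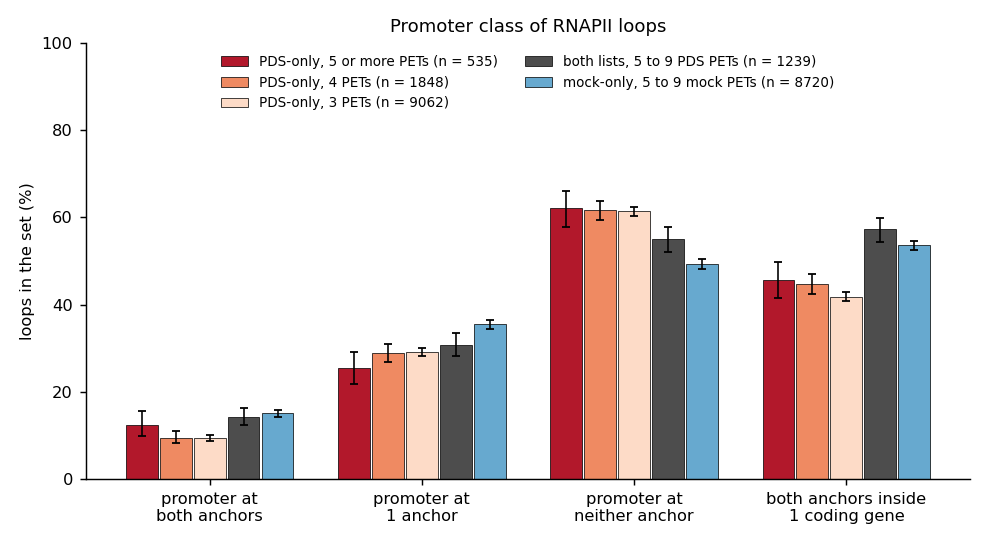
Percent of loops (y axis) with a promoter at both anchors, at 1 anchor or at neither, and with both anchors inside a protein-coding gene, for the PDS-only strong loops and 4 other sets of loops. Bars are shares and whiskers 95% Wilson intervals. The PDS-only strong loops had no promoter in 62.1%, above the 55.0% of loops in both lists and the 49.3% of mock-only loops.

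Most of the anchors were also listed in mock loops, many of them with few PETs. Other mock loops were listed at both anchors of 279 of the 535 loops (52.1%, 47.9 to 56.4%), at 1 anchor of 181 (33.8%, 29.95 to 37.9%) and at neither anchor of 75 (14.02%, 11.3 to 17.2%). When mock loops of at least 4 PETs alone were counted, the share with mock loops at both anchors was 26.2% (22.6 to 30.1%) and at neither 35.5% (31.6 to 39.7%). The loops in both lists had other mock loops at both anchors in 75.6% (73.2 to 77.9%) and at neither in 3.55% (2.66 to 4.73%). For PDS-only loops with 4 and 3 PETs the share with mock loops at both anchors was 45.0% (42.8 to 47.3%) and 40.8% (39.8 to 41.8%), and for the mock-only loops it was 57.8% (56.7 to 58.8%). The PDS-only strong loops therefore lay between the weakest PDS-only loops and the loops in both lists, with intervals apart from both. A larger part of the loops in both lists had 6 or more PETs. Among PDS-only loops this share rose with PETs, to 61.9% at a minimum of 6, so the sets were not of equal strength. The sets were also defined by presence in or absence from the mock list, which may by itself tilt shares that count mock loops. The PDS-only strong loops had a median of 3 other mock loops, and the anchor with most had 29. Counted by anchor, 724 of the 1054 anchors took part in a mock loop and 330 did not, of which 182 had a mock-looped anchor within 5 kb. The anchors with a mock loop were wider (median 9296 bp) than those without (5496 bp), and the part of width in this difference was not tested. Promoter anchors had a mock loop in 200 of 265 cases (75.5%, 70.0 to 80.3%) and the others in 524 of 789 (66.4%, 63.0 to 69.6%).

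The mock list often joined nearly the same places. In 259 of the 535 loops (48.4%, 44.2 to 52.6%) a mock loop joined anchors that lay within 5 kb of both anchors, or were those anchors themselves paired with a neighbour. This was the case for 75.5% (73.0 to 77.8%) of the loops in both lists, where the loop itself was not counted, and for 41.4% (39.2 to 43.7%) and 32.3% (31.3 to 33.3%) of PDS-only loops with 4 and 3 PETs. The strongest such mock loop had a median of 4 PETs. It had at least as many PETs as the PDS-only loop in 90 of the 259 and fewer in 169, and in 113 it stood at the listing minimum of 3. The highest count, 16, belonged to a mock loop next to a PDS-only loop of 5 PETs on chromosome 20 that had an anchor in AURKA, a mitotic kinase gene (named after its values were seen). In 144 loops (26.9%, 23.3 to 30.8%) both anchors were joined to a common other anchor in the mock list, compared with 51.7% (48.9 to 54.4%) of the loops in both lists. The loops in both lists were chosen for having a mock loop and the PDS-only loops for lacking one. Leaving out the loop itself does not remove this, so these contrasts are not between like sets.

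**Figure D2:**
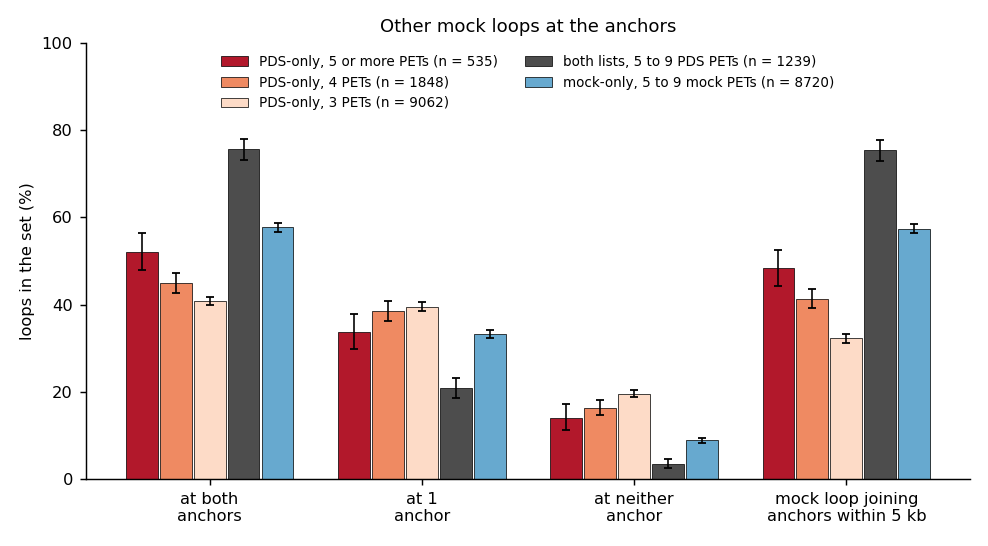
Percent of loops (y axis) with other mock loops at both anchors, at 1 anchor or at neither, and with a mock loop joining anchors within 5 kb of both, in the same 5 sets. Whiskers are 95% Wilson intervals. Of the PDS-only strong loops 52.1% had mock loops at both anchors and 14.02% at neither, against 75.6% and 3.55% of the loops in both lists. The sets were themselves chosen by mock listing.

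The remaining loops of these anchors had fewer unscaled PETs after PDS treatment, as did the lists as a whole. The other loops at the anchors held 9180 mock PETs and 2684 PDS PETs, so that 22.6% (21.9 to 23.4%) of them came from PDS-treated cells, compared with 20.8% (20.7 to 21.0%) of all listed PETs. With PETs divided by the total of each list, the PDS share of the other loops was 52.6%, so their PETs were fewer only before scaling. Unscaled, the same share was 21.1% for the loops in both lists and 25.3% for the mock-only loops. For PDS-only loops with 4 and 3 PETs it was 23.7 and 16.6%. Each set's own loops are left out of its share, so the share of all listed PETs is not a like baseline. Loop by loop and without scaling, the other PDS PETs were fewer than the other mock PETs in 428 of the 535 loops, equal in 75 and more in 32. No other PDS loop was listed at either anchor of 210 loops (39.3%, 35.2 to 43.5%), and 57 had no other loop at all in either list.

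**Figure D3:**
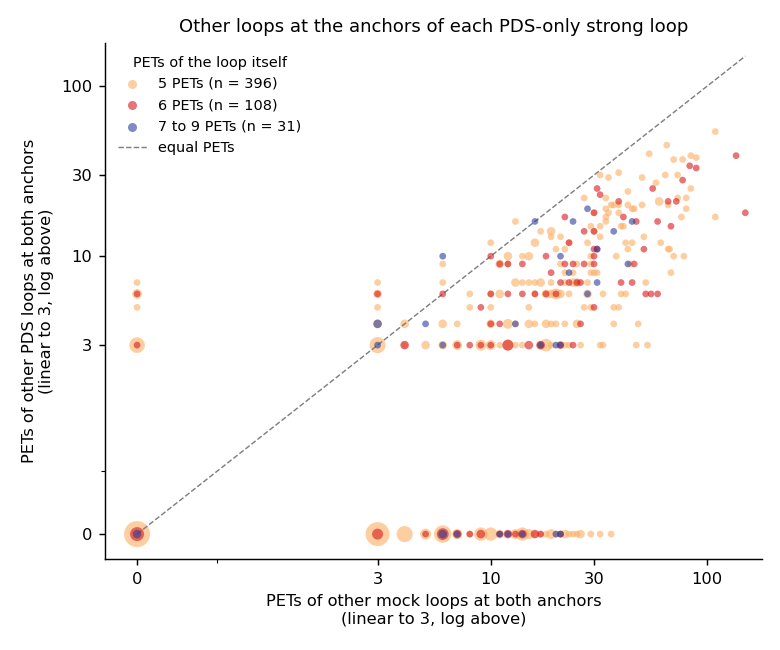
PETs of the other PDS loops (y axis) against PETs of the other mock loops (x axis), summed over both anchors of each PDS-only strong loop. Axes are linear up to 3 and logarithmic above. Each point is a set of loops with the same values, its area grows with their number, and colour gives the PETs of the loop itself. Below the dashed line of equal PETs lie 428 of the 535 loops.

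The 75 loops without mock loops at their anchors had low counts for the most part. Of these, 63 had 5 PETs, 10 had 6, 1 had 7 and 1 had 9, their median distance between anchor midpoints was 10792 bp, and 21 had a promoter anchor. Another PDS loop was present at 18 of them. The loop with 7 PETs joined intergenic anchors on chromosome 12. The loop with 9 PETs lay at RAD51C, which encodes a recombination protein that repairs DNA breaks. Its anchors, chr17:58688358-58693670 and chr17:58694713-58701805, had midpoints 7245 bp apart. The first anchor held the starts of RAD51C, of IGBP1C and of TEX14, a gene needed for bridges between germ cells, and the second the start of a shorter RAD51C transcript. No other loop was listed at either anchor in either condition. Elsewhere in the gene, anchors at other RAD51C transcript starts took part in 2 mock loops with 8 PETs. The 250 bases upstream of the RAD51C start, taken from RefSeq on GRCh38.p14, are printed because they lie in the first anchor.
RAD51C promoter, chr17:58692323-58692572, plus strand: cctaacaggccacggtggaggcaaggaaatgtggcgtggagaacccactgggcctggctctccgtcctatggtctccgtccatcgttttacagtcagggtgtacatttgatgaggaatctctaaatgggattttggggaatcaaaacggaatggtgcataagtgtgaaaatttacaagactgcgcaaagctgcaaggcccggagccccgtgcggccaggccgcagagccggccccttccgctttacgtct
It had no G4 motif, and nothing is in capitals for that reason. A motif was present in 8236 of 35116 RefSeq promoters of this length (23.5%).

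Among the 31 loops with 7 or more PETs, 13 had a promoter anchor, 8 had no promoter and both anchors inside a protein-coding gene, and 10 were of neither kind, 4 of which had an lncRNA promoter. Mock loops were listed at both anchors of 21, at 1 anchor of 8 and at neither of 2. For 19 of the 31 a mock loop joined anchors within 5 kb of both, and in 2 of these it was at least as strong as the PDS-only loop. Other PDS PETs were fewer than other mock PETs at 24 of the loops, equal at 4 and more at 3.

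**Figure D4:**
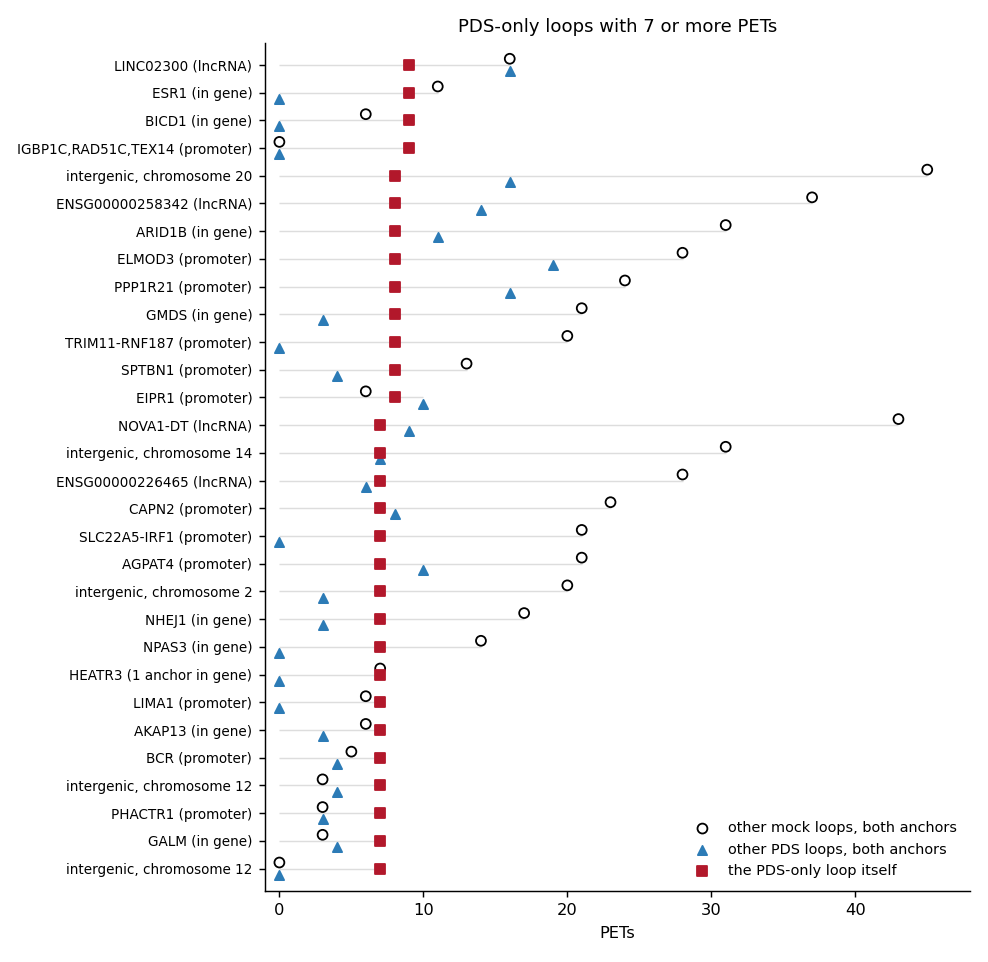
PETs (x axis) of 30 of the 31 PDS-only loops with 7 or more PETs (squares), of the other mock loops at their anchors (circles) and of the other PDS loops there (triangles), named by promoter gene, by the gene that holds both anchors, by lncRNA, or as intergenic. The circle lies right of the triangle in 23 of the 30 loops, and the RAD51C loop has 9 PETs with both other values at 0.

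Of the other loops with 9 PETs, 2 lay inside genes. The loop in BICD1, which encodes an adaptor of the dynein motor, spanned 36.0 kb, and each anchor had 1 mock loop of 3 PETs and no other PDS loop. The loop in ESR1, the gene of oestrogen receptor alpha, spanned 18.2 kb, and its anchors had 1 mock loop with 3 PETs and 2 with 8. Neither had a promoter anchor, and no mock loop joined places within 5 kb of both anchors in either gene. The remaining loop joined the start of the lncRNA LINC02300 on chromosome 14 to a place 18.9 kb away. Its anchors had equal PETs in other loops of both conditions, 3 at the first anchor and 13 at the second.

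Loops with 7 or more PETs joined promoters of different genes at a pair of loci. The TRIM11 and RNF187 promoters, both of genes for RING-type ubiquitin ligases, were joined over 83.5 kb by 8 PETs (chr1:228385916-228409131 and chr1:228470614-228491503). In mock-treated cells the TRIM11 anchor had 2 loops with 6 PETs and the RNF187 anchor 3 with 14, none of which joined places within 5 kb of both, and no other PDS loop was listed there. SLC22A5, which encodes a carnitine transporter, and IRF1, an interferon-responsive transcription factor gene, were joined over 119.1 kb by 7 PETs. Their anchors had 2 mock loops with 7 PETs and 4 with 14, and again no other PDS loop. The start of the IRF1 gene record lay just outside its anchor, within the 1 kb window of the promoter definition. The start of the SLC22A5 gene record lay outside that window, and its anchor was a promoter anchor through another transcript start. At both loci the anchors had other loops in the mock list, and in the PDS list only the loop with each other. This does not show a change of partners. No other PDS loop was listed at 10 of the 31 loops with 7 or more PETs and at 210 of the 535. The PDS list held 67001 PETs against 254647 in the mock list, so weak loops can fall below its minimum of 3.

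Other promoter loops of this strength were mostly inside the gene whose promoter they touched. At ELMOD3 8 PETs joined starts of the same gene over 16.2 kb, with 18 and 10 mock PETs and 9 and 10 PDS PETs in other loops. EIPR1, a gene for a vesicle-trafficking protein, had 8 PETs over 15.5 kb, with 0 and 6 mock PETs against 4 and 6 PDS PETs. It was among the 3 loops of the 31 whose anchors had more other PETs after PDS treatment. SPTBN1, the gene of a beta spectrin, had 8 PETs over 7.2 kb, and its anchors had 3 and 10 mock PETs. The loop at PPP1R21, whose product acts on endosomes, was the only loop with 8 PETs and 1 promoter anchor to leave its gene. It ran over 351.1 kb to an intergenic anchor without mock loops, while the promoter anchor had 6 mock loops with 24 PETs. With 7 PETs, LIMA1, AGPAT4, PHACTR1 and BCR were joined to places inside the same gene, over 16.96, 35.0, 6.3 and 102.5 kb. These genes encode an actin-binding protein, a lysophospholipid acyltransferase, a regulator of actin and protein phosphatase 1, and a regulator of small GTPases. CAPN2, the gene of a calpain protease, was joined by 7 PETs to a place outside it over 17.002 kb. The promoter anchors had 3 mock PETs at LIMA1 and PHACTR1, 5 at BCR, 7 at AGPAT4 and 20 at CAPN2. By starts of the gene record alone, only CAPN2 among the genes of this paragraph had a promoter anchor. At the other genes the promoter anchor was set by the start of another transcript.

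Genes that held loops of 7 or 8 PETs without a promoter had varied functions. They were GMDS (GDP-mannose dehydratase) and ARID1B (a subunit of the BAF chromatin remodeller) with 8 PETs, and NPAS3 (a neuronal transcription factor), AKAP13 (a scaffold of protein kinase A), NHEJ1 (a factor of DNA end joining) and GALM (a galactose mutarotase) with 7. GMDS had the strongest mock loop near its PDS-only loop among the 31, with 11 PETs between anchors within 5 kb. The ARID1B anchors had 15 and 16 mock PETs and 11 and 0 PDS PETs. A further loop with 7 PETs joined HEATR3 to an intergenic place 17.6 kb away. Over all 535 loops, 3 genes held both anchors of 3 loops each, NPAS3, PTPRT (a receptor tyrosine phosphatase gene) and SNX29 (a sorting nexin gene), and 10 genes held 2, the 3 being named after their values were seen. These genes were long, at 886, 1117 and 598 kb. They also had 70, 49 and 75 mock loops. The 244 genes that held a PDS-only strong loop had a median length of 140.3 kb, compared with 104.8 kb for genes that held loops of both lists and 27.4 kb for all protein-coding genes.

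Of the 26 loops between promoters of different genes, 3 had 6 PETs and are given here for their PETs, after their values were seen. They joined MT1F to MT1G and MT1H, which encode metal-binding metallothioneins, over 8.7 kb, the NEUROD2 and PPP1R1B anchor to STARD3, a gene for a cholesterol-binding protein, over 34.6 kb, and PKN3, a protein kinase gene, to ZDHHC12, a palmitoyltransferase gene, over 8.7 kb. The MT1F anchor had 3 mock loops with 12 PETs while the anchor of MT1G and MT1H had none in the mock list. The NEUROD2 and PPP1R1B anchor had 11 mock loops with 49 PETs, and after PDS treatment 1 other loop with 3 PETs. The ZDHHC12 anchor had 4 mock loops with 17 PETs and the PKN3 anchor none. For all 3 loops a mock loop joined anchors within 5 kb of both, with 3 PETs at MT1F, 6 at STARD3 and 7 at PKN3. By starts of the gene record alone, the STARD3 and PKN3 anchors were not promoter anchors.

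At least 1 PDS-only strong loop touched a promoter of 250 protein-coding genes, of the 12500 that had any loop at a promoter (2%). Such loops also touched promoters of 140 lncRNA genes, for which no share of looped genes is given. Most genes had 1. The protein-coding genes with 2 were EIPR1, FOXR1, GGT7, ID3, PARP10, PPP1R21, RALGAPA1, RSPRY1, SGF29 and SLC38A10. Of the 1054 anchors, 16 were used by 2 of the loops and none by more. For comparison, the 1239 loops in both lists used 2265 anchors and the 1848 PDS-only loops with 4 PETs used 3599. Of the 16 shared anchors, 15 had mock loops (median 4.5, highest 20). The exception was an anchor in CCND3, the gene of cyclin D3, with 0 mock loops. The promoter anchor of ID3, which encodes an inhibitor of basic helix-loop-helix transcription factors, was joined by 5 PETs each to places 57.7 and 78.4 kb away. The same anchor had 5 mock loops with 27 PETs. At SGF29, a subunit gene of the SAGA coactivator complex, a central anchor was joined by 6 PETs to promoter anchors on either side, 15.7 and 14.3 kb away, and it had 2 mock loops with 11 PETs. Only the promoter anchor 15.7 kb away held the start of the gene record. An anchor at a transcript start inside RSPRY1, away from the start of the gene record, had 1 mock loop, with 10 PETs. It was joined by 5 PETs each to promoter anchors of NLRC5, 140.2 kb away, and of PSME3IP1, 36.7 kb away. At RALGAPA1, which encodes a regulator of Ral GTPases, the loops of 6 and 5 PETs used different promoter anchors, which had 14 and 5 mock loops. Among named lncRNA genes, NOVA1-DT, ISM1-AS1 and LINC00299 had 2. The NOVA1-DT anchor, with 9 mock loops and 32 mock PETs, was joined by 7 PETs over 28.6 kb and by 5 PETs over 223.5 kb to a place inside NOVA1, the gene of a neuronal splicing factor. The ISM1-AS1 anchor had 20 mock loops with 83 PETs, the most of the 16 shared anchors.

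Gene lists for HepG2 functions and for responses to PDS seldom met these loops. With 2% of looped genes as the background, FOXA1 was the only 1 of 25 looped hepatocyte transcription factor genes with a PDS-only strong loop at a promoter, RAD51C 1 of 42 genes of p53 targets and the DNA damage response, ACSL3 1 of 31 of cholesterol and fatty acid synthesis, and NCAPH 1 of 21 of cohesin and loop architecture. No gene did so among 45 plasma protein, 30 immediate early and stress, 18 heat shock, 27 NRF2 target, 28 G4 helicase and G4-binding, 34 RNAPII and Mediator, 60 ribosomal protein and 34 cytochrome P450 and conjugating enzyme genes with loops. The Wilson upper limit of 0 of 60 is 6.02%, and the intervals of all 12 lists include the background of 2%. FOXA1, a pioneer factor of liver and other endoderm, had a loop of 5 PETs over 6.8 kb into TTC6, which starts in the same anchor. Its promoter anchor had 4 mock loops with 17 PETs and no other PDS loop, and a mock loop of 9 PETs joined anchors within 5 kb of both. ACSL3, which activates long-chain fatty acids, had a loop of 5 PETs to MOGAT1, a gene of triglyceride synthesis, over 190.8 kb, beside 14 mock loops with 74 PETs at its promoter anchor. NCAPH, a condensin subunit gene, had a loop of 6 PETs over 33.9 kb, and its promoter anchor had 1 mock loop of 6 PETs. By starts of the gene record alone, this NCAPH anchor was not a promoter anchor.

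Among 16 hepatocyte marker genes, 14 had a mock loop at a promoter (ALB, for instance, 13 loops with 64 PETs) and 12 had a PDS loop, with summed PETs of 318 and 78. Of 7 blood and stroma genes, 4 had a mock loop and 2 a PDS loop, with 60 and 14 PETs. PTPRC, HBB and SPI1 had none in either list, while PECAM1 had 8 mock loops. Loops can touch a promoter from a neighbouring gene, so the marker counts are not expression. A loop at a promoter in either list was found for 12500 protein-coding genes. The share of all genes with a mock or a PDS loop is not given, so the marker counts do not check the cell line. No marker of either kind had a PDS-only strong loop. Over all looped protein-coding genes the share was 2%, so nothing can be read from this with so few markers.

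The length of the PDS-only strong loops overlapped that of loops in both lists at the median, and their share over 200 kb was higher. Between anchor midpoints the median distance was 16578 bp (95% interval from binomial ranks 15108 to 18170 bp), compared with 15770 bp (15076 to 16290 bp) in both lists. The quartiles were 10440 and 35859 bp and the range 5190 to 1676656 bp. Over 200 kb lay 25 loops (4.67%, 3.18 to 6.81%), against 2.18% (1.502 to 3.15%) of loops in both lists, 7.14% (6.06 to 8.41%) of PDS-only loops with 4 PETs and 9.02% (8.44 to 9.62%) of those with 3. Between the inner ends of the anchors the median gap was 5870 bp (4459 to 7435 bp), wider than the 2515 bp (2283 to 2756 bp) of loops in both lists, and in 177 loops (33.1%, 29.2 to 37.2%) it was under 2500 bp, against 49.9% (47.1 to 52.7%). Their anchors were also narrower, with a median of 8114 bp (7642 to 8616 bp) against 10276 bp (9954 to 10638 bp). The longest loop, 1677 kb, joined ADD2 to EXOC6B on chromosome 2 by 5 PETs. The next, at 1106 kb, joined a promoter of RARRES1 to IQCJ-SCHIP1 on chromosome 3.

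G4 motifs were no more frequent in these anchors than in those of the loops in both lists. At least 1 motif lay in an anchor of 410 of the 535 loops (76.6%, 72.9 to 80.0%), compared with 80.5% (78.2 to 82.6%) of loops in both lists and 77.7% (76.8 to 78.6%) of mock-only loops, and the intervals overlap. When the motif had to lie within 1 kb of the anchor midpoint, the share of the PDS-only strong loops was 36.3% (32.3 to 40.4%). Anchors of the sets differed in width, so the density was computed as well, and it was 1.95 motifs per 10 kb of anchor, against 2.31 in both lists and 2.57 in the mock-only loops. The GC content of the anchors was 43.7%, 43.9% and 44.6%. No interval was computed for the densities. These are sequence predictions, and G4 structures in HepG2 chromatin were not measured in these lists.

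By chromosome the loops were unevenly spread, as was the whole PDS list. Chromosome 2 held 104, chromosome 20 held 67, chromosome 14 held 60, chromosome 6 held 46, chromosome 17 held 40 and chromosome 16 held 38, in all 355 of the 535 (66.4%, 62.2 to 70.2%). These 6 chromosomes were chosen from earlier results of these data, so their high share is in part set by that choice. HepG2 is known to carry extra copies of these chromosomes or of parts of them, and the part of copy number was not tested. The same chromosomes held 11686 of the 18778 PDS loops (62.2%, 61.5 to 62.9%) and 62.0% (59.7 to 64.1%) of the PDS-only loops with 4 PETs, whose interval overlaps. They held 79.3% (77.0 to 81.5%) of the loops in both lists, a share whose interval lies above that of the PDS-only strong loops. On chromosome 14 they made up 20.6% (16.4 to 25.6%) of the PDS loops with 5 or more PETs, the lowest share among the autosomes, and below the 29.3% of all chromosomes.

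**Figure D5:**
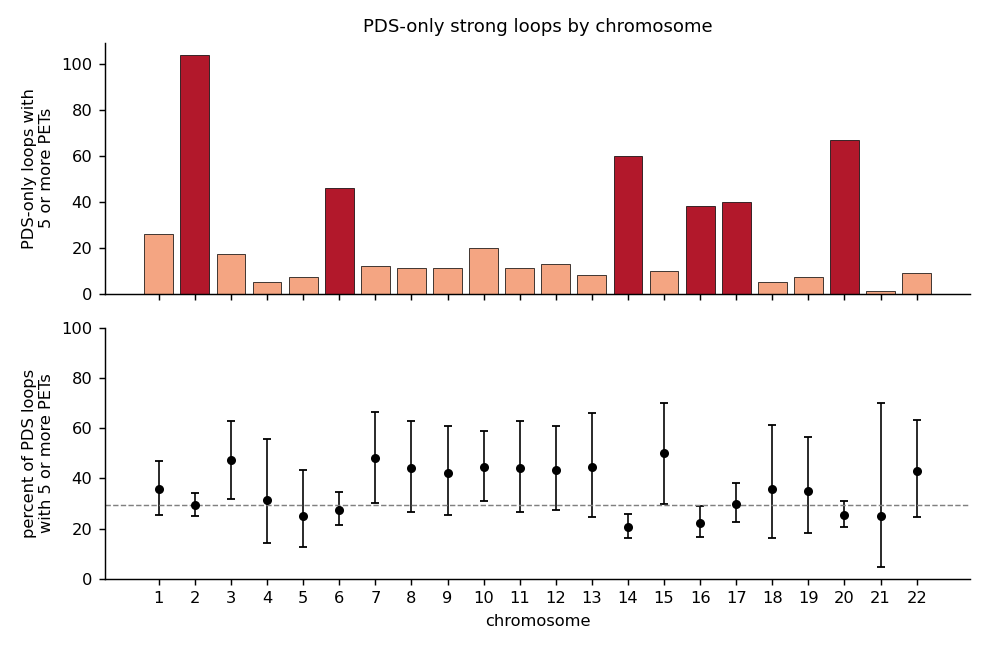
PDS-only strong loops on each autosome (top, with chromosomes 2, 6, 14, 16, 17 and 20 darker) and their percent of the PDS loops with 5 or more PETs on that chromosome (bottom, points with 95% Wilson intervals). The dashed line is the 29.3% over all chromosomes, and chromosome 14 lies below it at 20.6%.

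The loops differed between these 6 chromosomes and the others in promoters and in mock loops. A promoter anchor was present in 33.2% (28.5 to 38.3%) of the 355 loops on the 6 chromosomes and in 47.2% (40.1 to 54.5%) of the 180 elsewhere. Mock loops were listed at both anchors of 62.3% (57.1 to 67.1%) and of 32.2% (25.8 to 39.4%), and at neither anchor of 7.61% (5.28 to 10.8%) and of 26.7% (20.7 to 33.6%). The loops in both lists showed the same order, with promoter anchors in 42.2% (39.2 to 45.3%) and 55.9% (49.7 to 61.8%) and mock loops at both anchors of 80.2% (77.6 to 82.5%) and 58.2% (52.1 to 64.1%). Within either group of chromosomes, a smaller share of the PDS-only strong loops than of the loops in both lists had mock loops at both anchors. The choice of these sets by mock listing may tilt this contrast. For promoter anchors the interval lay below that of the loops in both lists on the 6 chromosomes, while elsewhere the intervals overlapped. Anchors in repeated sequence were few: in 12 of the 535 loops (2.24%, 1.29 to 3.88%) over 50% of the 31-base sequences of an anchor occurred more than once in the genome, compared with 4.60% (3.57 to 5.91%) of the loops in both lists. A total of 5 loops lay on contigs that are not placed within a chromosome.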

How the data were processed

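POLR2A HiChIP-seq was performed in HepG2 cells, mock-treated or treated with PDS, in 4 libraries. Reads were processed by the authors with HiC-Pro version 3.1.0 at default settings: alignment to GRCh38, removal of duplicates and assignment to MboI fragments. The authors deposited 1 list of loops per condition, with unscaled counts of PETs per loop. The tool that set anchors and loops, and how replicates were combined, are not given in the sources used here. The depth of the libraries is unknown, and sums of listed PETs are not depths.

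Loops were matched between the lists by identical anchor pairs. Of the 1054 anchors of the chosen loops, 1053 had an MboI site at both ends in the reference, and none of all 81742 anchors ran past a chromosome end, as a check of the build. Coordinates are 1-based on GRCh38, genes are from GENCODE 44 and promoter sequences from RefSeq on GRCh38.p14. Shares have Wilson intervals and medians intervals from binomial ranks (scipy 1.17.1). Loops in both lists with 5 to 9 PDS PETs, the range of the chosen loops, served as the comparison set. They were matched in range and not in the spread of PETs within it. Being listed in mock, they are not a like baseline for shares that count mock loops. Multi-copy sequence was counted with 31-base words over the genome without alternate contigs. The steps were tested on simulated loops and sequences with known answers. Scripts ran in Python 3.11.15 with pysam 0.24.0, samtools 1.23.1, numba 0.67.0, pandas 2.3.3, numpy 2.4.6 and matplotlib 3.10.9.

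Named were genes with a promoter in a chosen loop of 7 or more PETs or in at least 2 chosen loops, genes that hold the loops of 7 or more PETs without a promoter, and members of 12 gene lists with a promoter in a chosen loop. The anchors with most chosen loops were also to be named, up to 5, but 16 tied. Promoters of lncRNA genes known only by an identifier were counted and not named. The loops, gene lists and comparison sets were chosen with earlier results of these data known. Alternatives were other PET minimums, matching rules, promoter and motif definitions, chromosomes left out, loops sharing anchors or in repeated sequence left out, and scaled PETs. A gene and a motif sequence that the rules would name are not reported here. BG4 peaks and expression were not analysed here.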

Additional observations from a re-analysis of the deposited data

How the results depend on the processing

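Of 95 values recomputed under another setting, 57 stayed within the 95% counting interval of the reported value (or, for the number of loops, within 1.5 times of it) and 38 did not. The cause was not tested. Matching by a 1 bp overlap of both anchors chose the same number of loops, 535, and gave the reported values unchanged. These unchanged values count among the 57, so that number overstates the stability. The 9 planned repeats that leave out a replicate were not run, since each list combines its replicates. No paired analysis was possible because the combined lists carry no replicate numbers and no result comes from a test. The PET minimum, the mock list's own minimum of 3 PETs and the unknown library depths limit every count of absent loops.

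With a minimum of 4, 6 or 7 PETs, 2383, 139 and 31 loops were chosen, and other mock loops stood at both anchors of 46.6, 61.9 and 67.7%. With 6 and 7, none stood at either anchor in 8.63 and 6.45%, and the PDS share of other PETs was 23.4 and 24.9%. With 6, 71.9% lay on the 6 chromosomes. With 7, 16.1% had promoters at both anchors and 83.9% a G4 motif. Where absence was also required within 5 kb of both anchors, 276 loops remained. Of these, 36.6% had mock loops at both anchors, 26.4% at neither, 58.0% lay on the 6 chromosomes, and the PDS share of other PETs was 24.6%. Without the 6 chromosomes 180 loops remained, 47.2% with a promoter anchor, 16.7% with promoters at both, 32.2% with mock loops at both anchors and 26.7% at neither, with a PDS share of 18.6%. Without chromosome 14 that share was 21.7%.

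A promoter anchor was present in 17.6% of the 535 loops by gene starts only and in 50.1% when lncRNA genes were added. Promoters at both anchors were present in 1.495% by gene starts only and in 16.8% within 2500 bp. With mock loops of at least 4 PETs, 26.2% had mock loops at both anchors, 35.5% at neither, and the PDS share was 32.6%. That minimum was applied to mock PETs and not to PDS PETs, so the PDS share had to rise. Counting mock loops with an anchor within 5 kb gave 81.9 and 9.72%. The inner distance was 5870 bp. Spacers of up to 12 bases gave a G4 motif in 89.5%, and the window within 1 kb of the midpoint in 36.3%. With PETs divided by list totals the PDS share was 52.6%.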
